A study of Rattus norvegicus with 6 samples.

Results

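The Hox genes of rat mesenchymal stem cells from the nasal mucosa were examined in 6 libraries, 3 from cells called EMSC and 3 from cells called NPS-EMSC. The members are the genes whose symbol is Hox followed by a cluster letter from a to d and a number. RefSeq lists 39 such rat genes, and 22 of them had a row among the 20653 genes of the deposited count table. Every row of that table held at least 1 read, so the 17 members without a row were taken as having no reads. Per the labels the cells of both groups are primary, of genotype SD and of the same tissue, and the series title describes stem cells that overexpress neuropeptide S. The labels do not say how the gene was delivered, whether EMSC carried a control vector, or whether the 3 libraries of a group came from separate cultures, so p-values measure the spread between these libraries only. Neuropeptide S itself, its delivery and changes during culture cannot be told apart.

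Hox genes encode homeodomain transcription factors and lie in clusters named A to D. The number of a gene is its paralogue group, and genes with low numbers act towards the head end of the body axis while genes with high numbers act towards the tail and the tips of the limbs. Which Hox genes a connective tissue cell transcribes is largely set by where it arose in the embryo and is often kept in culture. The neural crest that forms the skeleton and mesenchyme of the face and nose lacks most Hox expression, whereas trunk and limb mesenchyme expresses many Hox genes.

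The labels were first checked against the data. Nps, which encodes neuropeptide S, gave 0, 0 and 10 reads in EMSC and 93566, 77014 and 85916 in NPS-EMSC. Total counted reads ran from 39082245 to 40261205 per library, so depth was nearly equal in both groups. The 7 mesenchymal markers (Pdgfra, Pdgfrb, Col1a1, Col1a2, Thy1, Vim and Prrx1) were abundant throughout, with a summed level of 22404 to 24508 CPM in EMSC against 22502 to 23581 CPM in NPS-EMSC. Single markers differed: by the edgeR test described below 4 were called higher in NPS-EMSC and 3 lower. Pdgfra fell from 1617 to 837 CPM and Thy1 rose from 417 to 1217 CPM. CPM is a gene's reads relative to the library's total counted reads, with totals scaled by TMM, a correction for composition. The neural crest markers Twist1, Sox9, Nes, Ngfr and Tfap2a all had reads in both groups, but their levels differed. By the same edgeR test 4 of these 5 were called lower in NPS-EMSC and 1 higher. Twist1, Sox9, Nes and Ngfr fell, with log2 fold changes of -0.21, -0.68, -0.997 and -2.87, while Tfap2a rose by 1.32. Ngfr was scarce, its mean being 1.20 CPM among EMSC libraries and 0.121 CPM among NPS-EMSC libraries.

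EMSC libraries held almost no Hox reads and NPS-EMSC libraries a small number, most of them from the HoxD cluster. Over all 39 genes the EMSC libraries had 3, 1 and 0 reads, while the NPS-EMSC libraries had 160, 88 and 150. The summed Hox level was 0.0325 ± 0.0370 CPM in EMSC (SD, n = 3) against 3.43 ± 1.02 CPM in NPS-EMSC. The groups did not overlap, and the ratio of the pooled reads, 4 against 398, was 101 (95% counting interval 39.2 to 373, exact, for counting error only). Of the 4 EMSC reads 3 came from replicate 1, and without that library the EMSC level was 0.0124 CPM. A member with 0 reads over a group could still have a level of up to 0.0251 CPM in EMSC or 0.0255 CPM in NPS-EMSC, the limit that 3 reads set. The low levels in NPS-EMSC could come from many cells with little Hox RNA or from few cells with more, and bulk libraries cannot tell these apart.

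The promoters of Hoxd8, Hoxd9 and Hoxd13 are shown because these were the members with the most reads. That of Hoxd12, which lies between Hoxd11 and Hoxd13 and had no row, is shown as the silent gene within this stretch of the cluster. Each stretch runs 5′ to 3′ from 250 bases before to 50 bases after the gene's start in RefSeq, assembly GRCr8, which may not be the build the authors used. Capitals mark matches of the CCAAT box (letters CCAAT), of the GC box (letters GGGCGG) and of the TATA box core (letters TATAAA), each searched on both strands, so that some capitals spell the reverse complement. Neighbouring matches can overlap.
Hoxd8, chr3:80014973-80015272, strand +: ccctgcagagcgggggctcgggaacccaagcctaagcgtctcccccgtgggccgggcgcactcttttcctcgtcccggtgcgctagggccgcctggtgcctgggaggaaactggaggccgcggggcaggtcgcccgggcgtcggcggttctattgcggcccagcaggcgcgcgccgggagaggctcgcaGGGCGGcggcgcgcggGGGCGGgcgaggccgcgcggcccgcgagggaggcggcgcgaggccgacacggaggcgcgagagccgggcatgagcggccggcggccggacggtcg
Hoxd9, chr3:80007756-80008055, strand +: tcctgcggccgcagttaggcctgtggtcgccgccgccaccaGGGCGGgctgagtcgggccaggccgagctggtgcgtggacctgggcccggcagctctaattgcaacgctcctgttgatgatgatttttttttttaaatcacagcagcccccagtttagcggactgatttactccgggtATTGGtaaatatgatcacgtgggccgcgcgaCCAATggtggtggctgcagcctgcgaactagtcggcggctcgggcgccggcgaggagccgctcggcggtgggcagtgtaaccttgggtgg
Hoxd13, chr3:79977827-79978126, strand +: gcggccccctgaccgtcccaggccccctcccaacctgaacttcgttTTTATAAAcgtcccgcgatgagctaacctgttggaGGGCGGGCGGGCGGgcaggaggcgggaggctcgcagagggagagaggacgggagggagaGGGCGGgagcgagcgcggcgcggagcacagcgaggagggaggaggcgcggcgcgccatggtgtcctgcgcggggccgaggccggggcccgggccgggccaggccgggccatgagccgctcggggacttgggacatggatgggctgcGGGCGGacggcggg
Hoxd12, chr3:79984856-79985155, strand +: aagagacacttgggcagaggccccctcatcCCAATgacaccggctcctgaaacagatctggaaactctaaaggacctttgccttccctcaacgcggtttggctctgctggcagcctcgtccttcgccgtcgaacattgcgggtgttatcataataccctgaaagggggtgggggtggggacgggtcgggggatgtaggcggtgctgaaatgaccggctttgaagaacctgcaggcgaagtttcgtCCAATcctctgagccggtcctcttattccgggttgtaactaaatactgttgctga

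These promoters differed in composition. The GC content was 79% for Hoxd8, 62.7% for Hoxd9, 74.7% for Hoxd13 and 55.3% for Hoxd12, against a median of 51.7% over 33465 RefSeq promoters of the same length. The ratio of observed to expected CpG pairs was 1.07 for Hoxd8 and 0.699 for Hoxd12, where the median promoter had 0.392. GGGCGG was found in 6 of the 9 HoxD promoters, with 5 matches in Hoxd13, 2 in Hoxd8, 1 in Hoxd9 and none in Hoxd12, and in 33.1% of all promoters. CCAAT was found in 5 of 9, among them Hoxd9 and Hoxd12 with 2 matches each, and in 37.5% of all promoters. TATAAA was found in Hoxd13 alone among the HoxD promoters and in 14.2% of all. AGGTCA, the core bound by retinoic acid receptors and other nuclear receptors, was found in Hoxd4 and Hoxd10 and in 16.2% of all promoters, and TGATNNAT, bound by Pbx and Hox proteins together, in Hoxd11 and in 9.11% of all. None of these features separated the HoxD genes with reads from those without: Hoxd1, which also had no row, had a GC content of 70%, a CpG ratio of 0.818 and 2 GGGCGG matches, while Hoxd4, which had reads, had a GC content of 47.3% and no GGGCGG match. A match of letters is no measure of binding.

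**Figure D1:**
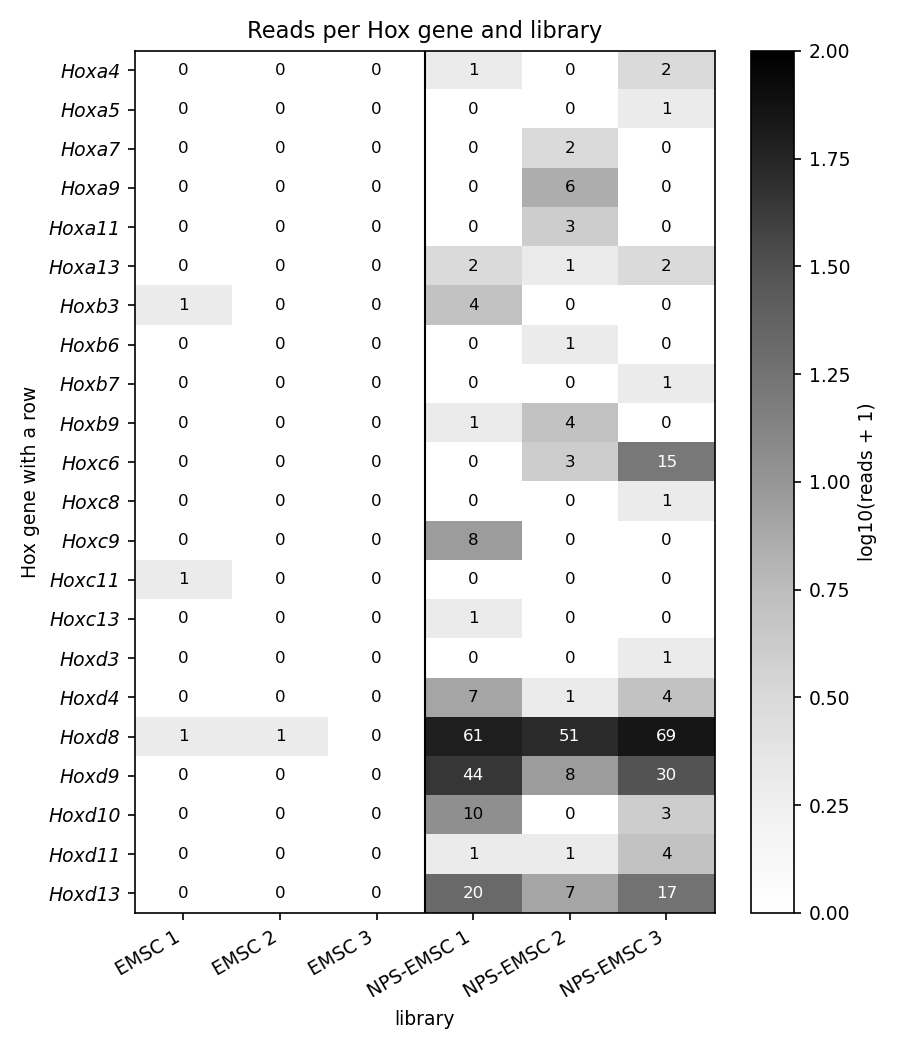
Reads of the 22 Hox genes with a row (vertical axis) in each of the 6 libraries (horizontal axis), with the read number in each cell and grey shades for log10(reads + 1). The EMSC columns hold 4 reads in all, and the darkest cells are those of Hoxd8, Hoxd9 and Hoxd13 in NPS-EMSC.

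Hoxd8, a central gene of the HoxD cluster, was the most abundant member. It had 1, 1 and 0 reads in the EMSC libraries and 61, 51 and 69 in the NPS-EMSC libraries, so the groups were far apart. Its mean level was 0.0163 ± 0.0141 CPM (SD, n = 3) among EMSC libraries and 1.56 ± 0.228 CPM among NPS-EMSC libraries. The ratio of the pooled reads, 2 against 181, was 92.0 (95% counting interval 25.1 to 766). The whole table was tested with edgeR's quasi-likelihood method, and calls required an adjusted p (Benjamini-Hochberg) below 0.05. Hoxd8 was the 1 member with enough reads to enter this test, and it rose with a log2 fold change of 4.59 (SE 0.52, edgeR adjusted p = 3.36e-08). Only its NPS-EMSC reads brought it past this filter on low counts, so a call in the other direction could not arise. The fitted value is smaller than the ratio of reads because the fit adds a prior count of 2. Of the 14505 genes tested, 29.7% were called higher and 29.5% lower, so a call alone does not set a gene apart here.

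Hoxd9, a posterior HoxD gene, had 0 reads in every EMSC library and 44, 8 and 30 in the NPS-EMSC libraries. NPS-EMSC replicate 2 was lowest, and the mean was 0.709 ± 0.474 CPM (SD, n = 3). With a floor of 3 reads over the 3 EMSC libraries, the pooled Hoxd9 reads of NPS-EMSC stood 27.8-fold above that floor. Such a fold allows for uncertainty in EMSC only, not for counting error or spread among the NPS-EMSC libraries. Hoxd13, the last gene of the cluster, which acts in digits and the genital tubercle, had 0 reads in every EMSC library and 20, 7 and 17 in NPS-EMSC. That is 0.380 ± 0.178 CPM, and the pooled reads stood 14.9-fold above the same floor. Hoxd4, which acts in the neck and hindbrain, had 7, 1 and 4 reads in NPS-EMSC and none in EMSC, pooled 4.07-fold above the floor.

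With these genes the test was limited by the number of reads and libraries. Hoxd4, Hoxd8, Hoxd9 and Hoxd13 each separated the 3 libraries of 1 group from the 3 of the other, and each gave p = 0.1 in a two-sided exact permutation test, the smallest that 3 against 3 libraries allow. When all rows were tested without a filter on low counts, 6 Hox genes were called higher by edgeR, against 22.0% of all 20653 rows. They were Hoxd8, Hoxd9 (adjusted p = 1.12e-08), Hoxd13 (adjusted p = 5.42e-05), Hoxc6 (adjusted p = 0.0133), Hoxd10 (adjusted p = 0.0303) and Hoxd4 (adjusted p = 0.0365), all from the edgeR fit. With limma on log2(FPKM + 1) values and no filter, 4 members were called higher, against 3596 of all 20653 rows. They were Hoxd8, Hoxd13 (limma adjusted p = 0.0118), Hoxa13 (adjusted p = 0.0278) and Hoxd9 (adjusted p = 0.0331). Hoxa13 had only 5 reads in NPS-EMSC and a log2 fold change of 0.0427 in the limma fit. There Hoxc6, Hoxd10 and Hoxd4 did not pass, with limma adjusted p values of 0.348, 0.212 and 0.294.

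The remaining HoxD genes were sparser. Hoxd10, active in the lumbar spinal cord and limbs, gave 10, 0 and 3 reads in NPS-EMSC, so 1 of them had none, and its exact permutation p was 0.4. Hoxd11, which acts in the forearm and the sacral region, had 1, 1 and 4 reads, and Hoxd3 had 1 read, in NPS-EMSC replicate 3. None of these 3 genes had a read in EMSC. Hoxd1 and Hoxd12 had no row. HoxD genes took 339 of the 398 Hox reads of NPS-EMSC, or 85.2%. By library their share was 89.4% in replicate 1 (exact binomial 95% interval 83.5 to 93.7), 77.3% in replicate 2 (67.1 to 85.5) and 85.3% in replicate 3 (78.6 to 90.6). The intervals of replicates 1 and 2 overlap narrowly, which does not show that the shares are equal. A difference between libraries was not tested.

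**Figure D2:**
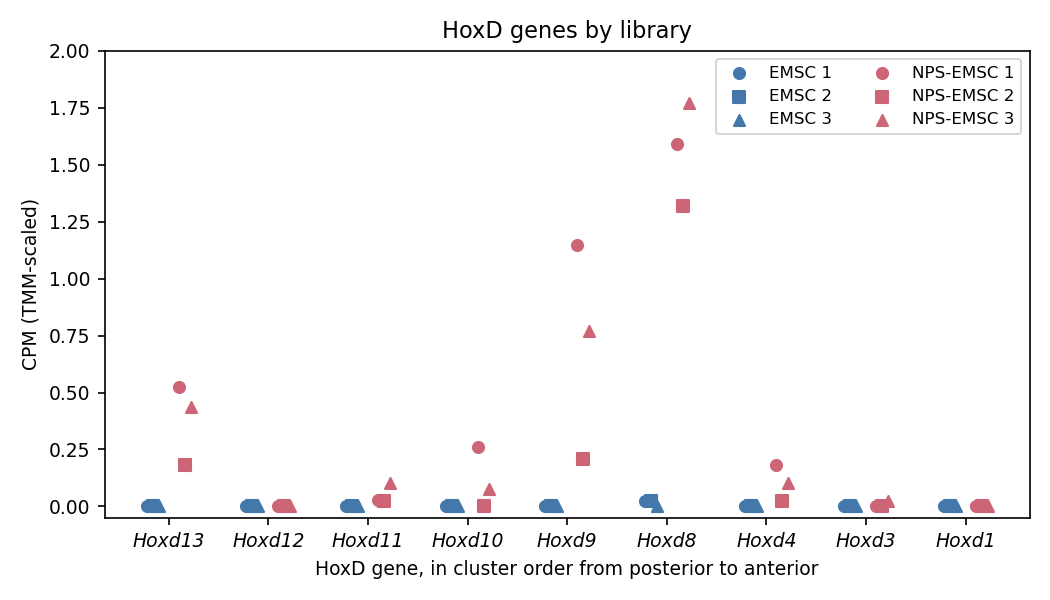
Level of each HoxD gene (CPM, vertical axis) in every library, with genes in their order along the cluster from posterior to anterior (horizontal axis), EMSC in blue and NPS-EMSC in red. All EMSC points lie at or just above 0, and the NPS-EMSC points peak at Hoxd8, with Hoxd12 and Hoxd1 at 0 on either side.

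Within the HoxD cluster the levels did not change steadily with position. Levels of different genes were compared per length, as the authors' FPKM (reads relative to gene length and to library total). In NPS-EMSC Hoxd8 stood at 0.739, 0.618 and 0.828 FPKM, above Hoxd9 at 0.613, 0.112 and 0.414 FPKM, and the ranges of these genes just failed to overlap. Hoxd13 followed at 0.206, 0.0721 and 0.173 FPKM. Its range overlapped that of Hoxd9, although Hoxd9 was the higher in each library. Hoxd10, at 0.138, 0 and 0.0411 FPKM, overlapped Hoxd13. Hoxd11, at 0.0152, 0.0152 and 0.0601 FPKM, overlapped Hoxd10 and was above it in replicates 2 and 3, so these 2 genes have no clear order. Hoxd4 and Hoxd3, towards the anterior end, had means of 0.0109 and 0.00268 FPKM. The lengths implied by the deposited tables differ widely between members, 2110 bases for Hoxd8 but 9322 for Hoxd4 and 10182 for Hoxc6, which lowers the FPKM of the long ones.

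The HoxA, HoxB and HoxC clusters gave few reads, scattered over libraries. HoxA genes had no read in EMSC and 3, 12 and 5 reads in the NPS-EMSC libraries. Hoxa13, the paralogue of Hoxd13, was the HoxA gene seen in all of these, with 2, 1 and 2 reads. Hoxa9 had 6 reads, Hoxa11 had 3 and Hoxa7 had 2, every one of them in NPS-EMSC replicate 2, and Hoxa4 had 1, 0 and 2 reads over the NPS-EMSC libraries. Hoxa5 had 1 read. HoxB genes had 1 read in EMSC, from Hoxb3, and 5, 5 and 1 in NPS-EMSC, of which Hoxb3 gave 4 in replicate 1 and Hoxb9 gave 1 and 4 in replicates 1 and 2. Hoxb6 and Hoxb7 had 1 read each.

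HoxC genes also differed between libraries of the same group. Hoxc6, a gene of the thoracic region, gave 0, 3 and 15 reads in NPS-EMSC, none in EMSC, and an exact permutation p of 0.4. Hoxc9 had all of its 8 reads in NPS-EMSC replicate 1. Hoxc8 and Hoxc13 had 1 read each in NPS-EMSC. Hoxc11 had 1 read in EMSC replicate 1 and none in NPS-EMSC, and it was the 1 member with more reads in EMSC. The HoxA, HoxB and HoxC members without a row included Hoxa2, Hoxa3, Hoxa6, Hoxa10, Hoxb1, Hoxb2, Hoxb4, Hoxb5, Hoxb8, Hoxb13, Hoxc4, Hoxc5, Hoxc10 and Hoxc12. Of the reference entries 4 carry another Hox symbol as a synonym (Hoxa2, Hoxa7, Hoxa11 and Hoxc9), so identity is less certain for the HoxA and HoxC rows concerned. In RefSeq 7 HoxA and HoxC genes overlap another Hox gene and none of the HoxD genes does (0 of 9), and how the authors counted shared reads is not given in the sources used here. Strand use is also not given, so antisense reads cannot be separated.

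**Figure D3:**
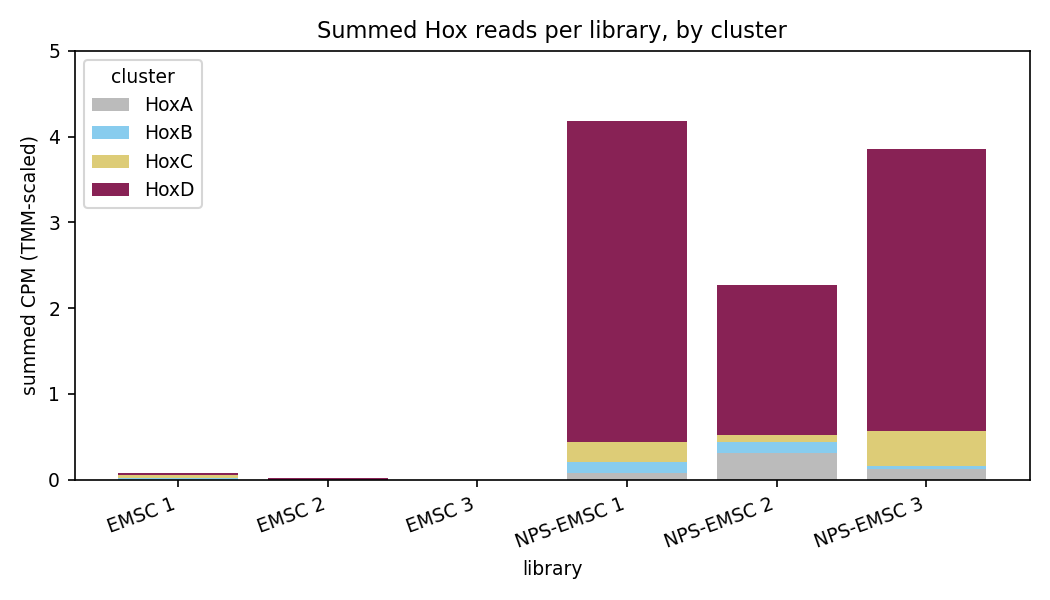
Summed Hox level in each library (CPM, vertical axis), stacked by cluster. NPS-EMSC replicates 1 and 3 reach 4.18 and 3.85 CPM and replicate 2 reaches 2.27 CPM, mostly from HoxD, and EMSC libraries stay under 0.1 CPM.

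By paralogue group, anterior genes were nearly silent in both groups of cells. Members of groups 1 to 3 had 1 read in EMSC and 5 in NPS-EMSC, from Hoxb3 and Hoxd3, which are 2 of the 8 genes of these groups. Central genes, groups 4 to 8, had 2 and 220 reads, of which Hoxd8 gave 181. Posterior genes, groups 9 to 13, had 1 and 173 reads, and HoxD gave 145 of the latter. Without Hoxd8 the remaining members had 2 reads in EMSC against 99, 37 and 81 in the NPS-EMSC libraries.

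Of the 22 rows, 21 had more reads in NPS-EMSC than in EMSC. Values of 6 members (Hoxa13, Hoxd4, Hoxd8, Hoxd9, Hoxd11 and Hoxd13) were higher in every NPS-EMSC library than in any EMSC library, and 25.0% of all rows were, a similar share. Among the 6148 rows with too few reads for the test, 7.35% separated in this direction, and 5.90% in the other, beside 5 and 0 of the 21 Hox rows, and 46.9% had more reads in NPS-EMSC, beside 20 of the 21. A pattern of 0 reads in every EMSC library and at least 1 in every NPS-EMSC library was seen in 5 members and in 179 rows of the table (0.867%), and the reverse in 145 rows (0.702%). These patterns were picked after the values were seen and are given as a description.

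Of the other transcripts of the clusters 3 had a row. LOC120101573, a long noncoding RNA gene that overlaps the start of Hoxd4 in RefSeq, gave 0 reads in EMSC and 6, 0 and 11 in NPS-EMSC, so reads of this pair of genes may not be separable. LOC120095283, a noncoding RNA gene of HoxB, had 1 read. Hotairm1, a noncoding RNA gene of the HoxA cluster, had 0, 1 and 0 reads in EMSC and 1 in each NPS-EMSC library. Evx2, the homeobox gene next to Hoxd13, had 1 read in all, in NPS-EMSC replicate 2. Beyond Evx2, Lnpk, which encodes an endoplasmic reticulum junction protein, rose from 33.4 ± 0.998 to 41.5 CPM (log2 fold change 0.31, edgeR adjusted p = 0.000606). On the far side of HoxD, Mtx2, a mitochondrial import gene, stood at 26.8 and 25.2 CPM and did not pass (edgeR adjusted p = 0.367). Atp5mc3, an ATP synthase gene on the Evx2 side, rose from 89.98 to 119.8 CPM, and Hnrnpa3 and Nfe2l2 on the Mtx2 side did not pass, with log2 fold changes of -0.12 and 0.10. Beside HoxA, Skap2, Snx10 and Hibadh fell by 0.44, 0.23 and 0.52 on the log2 scale and Tax1bp1 did not pass. Beside HoxB, Cbx1, Snx11 and Atp5mc1 rose by 0.51, 0.21 and 0.18. The Atp5mc1 call was lost in 7 of 16 alternatives (adjusted p up to 0.318), among them upper-quartile scaling, limma on FPKM and leaving out EMSC replicate 3 or NPS-EMSC replicate 2. The Snx11 call was lost without EMSC replicate 1 (adjusted p = 0.0589) and at a threshold of 0.01, and the Lnpk call with limma on FPKM without a filter (adjusted p = 0.0584). Beside HoxC, Cbx5 and Hnrnpa1 fell by 0.48 and 0.74, and Calcoco1, Atp5mc2 and Smug1 did not pass. Hnrnpa3, Calcoco1 and Nfe2l2 did gain a call in some alternatives. Without EMSC replicate 1 the edgeR adjusted p was 0.00213 for Hnrnpa3 and 0.0035 for Calcoco1, and with DESeq2 it was 0.0387 for Nfe2l2. Ttll6 had 1 read, and Tomm20l2, Evx1, Calcoco2, Skap1 and Tbcal1 had no row. Of these 24 nearest named coding genes, 3 on each side of each cluster, 17 were tested, 5 rose, 5 fell and 7 did not pass, with a median log2 fold change of -0.03. That is about the share of calls over all genes tested, 59.3%.

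Genes for the proteins that bind DNA together with Hox factors were present in both groups. Of 9 Pbx, Meis and Pknox genes tested, 4 fell and 5 did not pass, with a median log2 fold change of -0.04, where the median over all genes tested was -0.0048 and 29.5% of all genes were called lower. Pknox2, which encodes a homeodomain partner of Pbx proteins, fell from 8.14 ± 0.759 to 3.27 ± 0.579 CPM (SD, n = 3), with edgeR giving -1.30 on the log2 scale (SE 0.17, adjusted p = 3.11e-07). Meis3 and Pknox1 fell with log2 fold changes of -0.81 and -0.46. Meis1 averaged 19.2 and 21.8 CPM in EMSC and NPS-EMSC (edgeR adjusted p = 0.0861), and Meis2 averaged 30.1 and 29.97 CPM (adjusted p = 0.933).

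Retinoic acid activates Hox genes in the embryo. Of 9 tested genes for its receptors, synthesis and breakdown, 1 rose, 4 fell and 4 did not pass (median log2 fold change -0.11), a share of calls near the 59.3% over all genes tested. Cyp26b1, an enzyme that degrades retinoic acid, had 36.7, 46.6 and 36.1 CPM in EMSC and 5.30, 4.34 and 6.88 CPM in NPS-EMSC, without overlap (log2 fold change -2.84, SE 0.15, edgeR adjusted p = 5.62e-10). Aldh1a3, an enzyme that makes retinoic acid, fell from 43.4 ± 2.60 to 12.9 ± 1.60 CPM (SD, n = 3), or -1.74 on the log2 scale. Aldh1a1, a further such enzyme, fell from 0.798 to 0.0605 CPM. Aldh1a2, which also makes retinoic acid, stood at 15.5 and 14.4 CPM and did not pass (edgeR adjusted p = 0.437). The receptor gene Rara fell from 68.1 ± 1.42 to 39.8 ± 2.34 CPM. Rarb, also a receptor gene, rose from 1.53 ± 0.691 to 3.95 ± 0.476 CPM (log2 fold change 1.34, edgeR adjusted p = 0.000131). Rarb, Aldh1a1 and Aldh1a2 were named after their values were seen. In the list of Cdx and hindbrain regulators 4 of 7 genes were tested and Egr2, which switches on hindbrain Hox genes, was the 1 that passed, where 59.3% of all genes were called. It fell from 18.6 ± 3.27 to 6.18 ± 0.853 CPM. Cdx1, a caudal gene that activates trunk Hox genes, was at 4.84 and 4.16 CPM and did not pass (edgeR adjusted p = 0.297), and Cdx2 and Cdx4 had no row.

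The chromatin regulators that keep Hox clusters silent or active had summed levels that overlapped between the groups. The 26 Polycomb genes, whose products repress Hox genes, added up to 1282 to 1305 CPM in EMSC against 1275 to 1299 CPM in NPS-EMSC. Of these, 5 rose, 7 fell and 14 did not pass, with a median log2 fold change of -0.05, where 59.3% of all genes tested were called. Bmi1, a core member of the repressive complex that marks histone H2A, fell from 52.7 ± 1.32 to 36.9 ± 3.17 CPM (SD, n = 3), with edgeR giving -0.51 on the log2 scale (SE 0.07, adjusted p = 3.11e-07), and Phc1, Cbx7 and Cbx2 fell by 0.49, 0.56 and 0.97 on the log2 scale. Ezh2, the histone H3K27 methyltransferase gene, did not pass (16.8 and 16.2 CPM, edgeR adjusted p = 0.641), and its partner Suz12 rose with a log2 fold change of 0.24. Of 11 Trithorax and demethylase genes, which counter Polycomb, 4 rose, 1 fell and 6 did not pass, where 29.7% of all genes tested were called higher and 29.5% lower. Kdm6b, which removes the H3K27 mark, rose from 44.4 ± 2.28 to 65.0 ± 4.02 CPM, or 0.55 on the log2 scale (SE 0.06), and Kmt2b, Rbbp5 and Kdm6a rose by 0.28, 0.30 and 0.19. The Kdm6a call was lost with limma on FPKM values (adjusted p = 0.0567 to 0.0669).

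**Figure D4:**
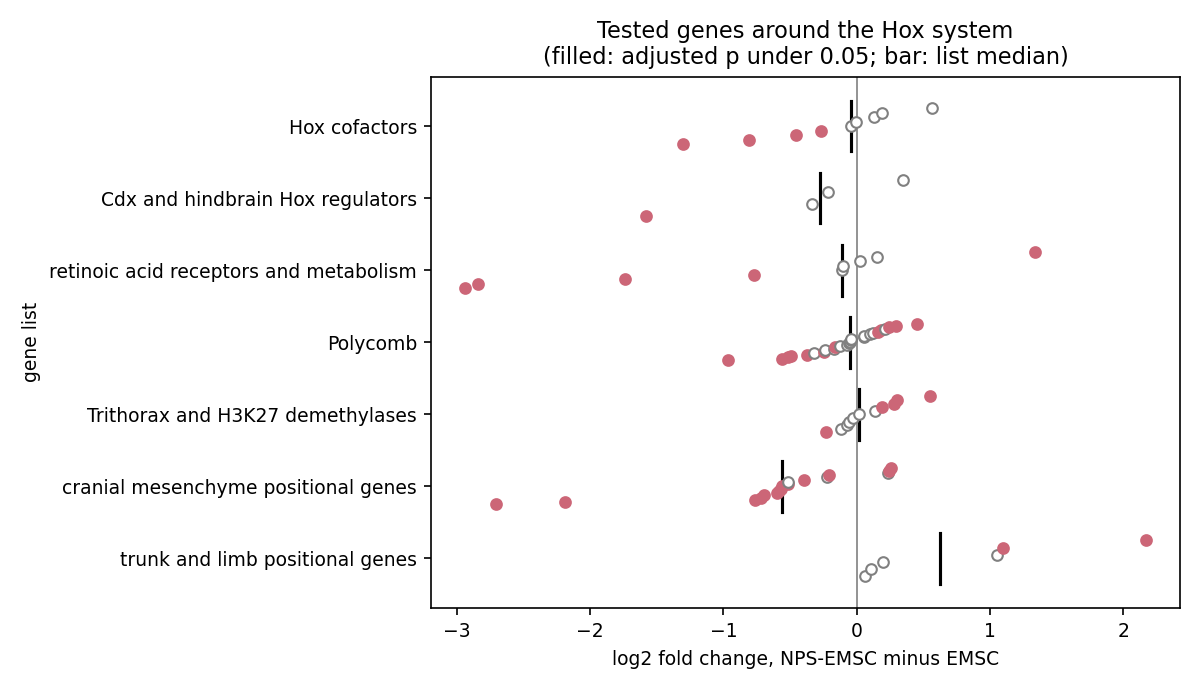
Log2 fold change, NPS-EMSC minus EMSC (horizontal axis), of every tested gene in 7 lists around the Hox system, with filled points at an edgeR adjusted p under 0.05 and a black bar at each list's median. The medians run from -0.56 for cranial genes to 0.63 for trunk and limb genes, and 4 of the 9 Hox cofactors are filled, all to the left of 0. The trunk and limb median rests on 6 genes, of which 4 did not pass. It falls in a gap between Tbx15 at 0.20 and Emx2 at 1.05, neither of which passed.

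Genes that mark cranial mesenchyme were well expressed in both groups, and most were somewhat lower in NPS-EMSC. Of 17 tested members 12 fell, 2 rose and 3 did not pass, where 29.5% of all genes tested were called lower and 29.7% higher. Their median log2 fold change was -0.56, against -0.0048 over all genes, and 13 had a mean of at least 1 FPKM in both groups. Pax9, a paired-box gene of the pharyngeal arches and palate, had 89.1, 89.5 and 96.7 CPM in EMSC and 58.1, 55.6 and 53.3 CPM in NPS-EMSC (log2 fold change -0.72, SE 0.05, edgeR adjusted p = 2.13e-11). Six2, a homeobox gene of the face, fell from 144 ± 5.91 to 85.0 ± 0.814 CPM (SD, n = 3). Alx1, a homeobox gene of the frontonasal region, fell from 84.0 ± 4.30 to 56.6 ± 1.90 CPM. Dlx5 and Dlx6, homeobox genes of the lower jaw, were low and fell furthest, from 1.63 to 0.206 CPM and from 1.28 to 0.242 CPM. The members that rose were Msx1, from 44.0 to 51.9 CPM, and Prrx1, a general mesenchymal homeobox gene, from 1919 to 2294 CPM, and these 4 genes were named after their values were seen.

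Of 6 tested trunk and limb genes other than Hox, 2 were called higher, a share near the 29.7% of all genes tested, and none lower. Tbx18 rose from 1.61 ± 0.210 to 7.39 ± 1.04 CPM (SD, n = 3), with edgeR giving 2.17 on the log2 scale (SE 0.19, adjusted p = 4.95e-10), and En1 from 7.21 ± 1.37 to 15.5 ± 1.86 CPM (log2 fold change 1.10), and the others did not pass. Tbx18 is also a gene of vascular mural cells, and En1 also acts in the brain and skin. Tbx5, Hand1, Hand2 and Evx1 had no row. Per length, Hoxd8 had a mean of 0.728 FPKM in NPS-EMSC. Of the cranial genes, Prrx1 at 429, Alx1 at 31.6, Six2 at 25.9 and Pax9 at 13.9 FPKM lay far above it. Dlx2 at 0.383 and Dlx5 at 0.137 FPKM lay below it. Of the trunk and limb genes, Shox2 at 17.2 and En1 at 5.69 FPKM lay far above it too, and Emx2 at 0.201 FPKM below. Nearest to it among the trunk and limb genes were Tbx4 at 0.914 and Tbx15 at 0.526 FPKM.

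**Figure D5:**
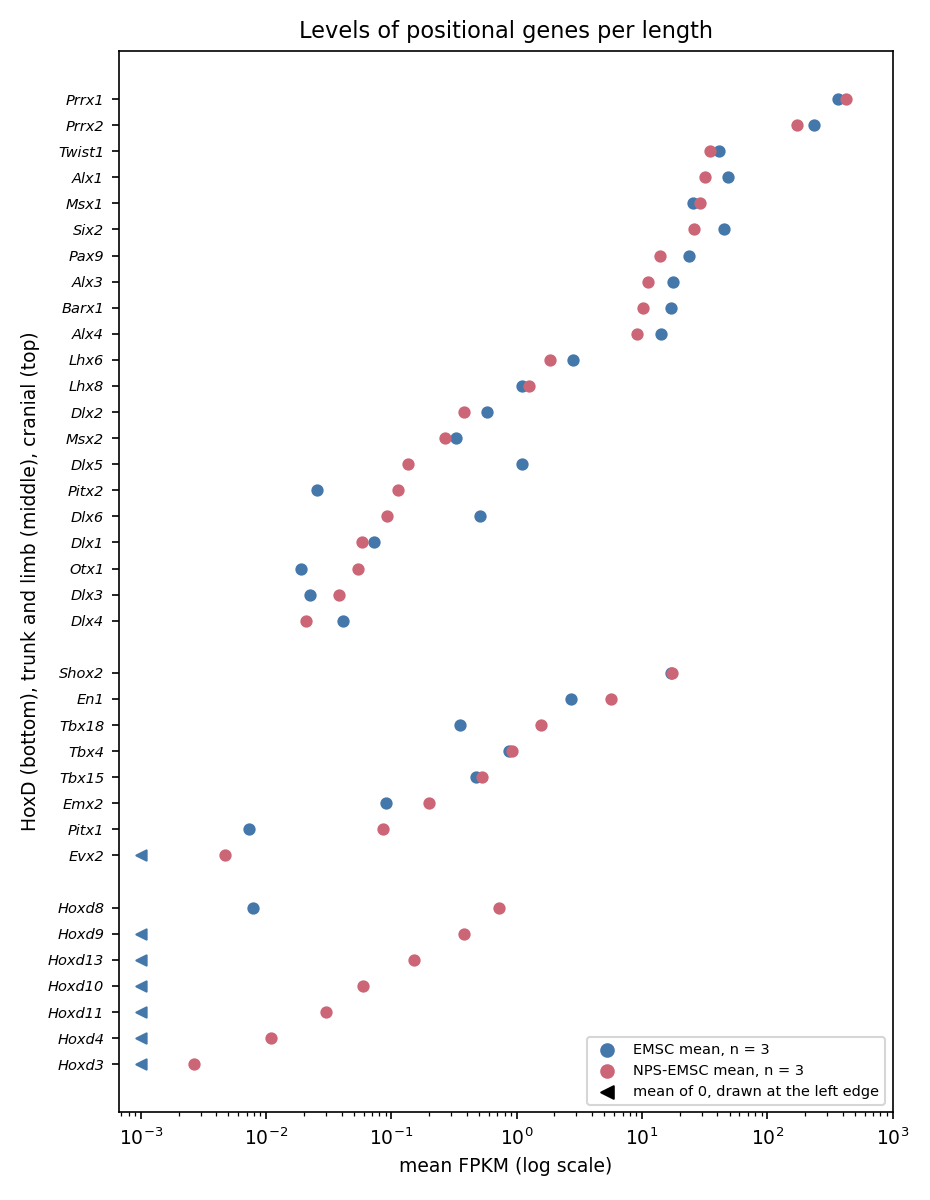
Mean FPKM (horizontal log axis) of cranial genes (top), trunk and limb genes (middle) and HoxD genes (bottom) that have a row and are reported here, for EMSC in blue and NPS-EMSC in red (n = 3 each), with triangles at the left edge for a mean of 0. Hoxd8, the highest HoxD gene in NPS-EMSC at 0.728 FPKM, lies below Pax9, Six2, Alx1, Prrx1 and also Shox2 in that group.

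Markers of several other cell types also differed between the groups, some higher and some lower in NPS-EMSC. Their part in the Hox difference was not tested. The 4 skeletal muscle markers summed to 0.267 to 0.726 CPM in EMSC against 5.81 to 8.12 CPM in NPS-EMSC. Of these Myh3, the embryonic myosin heavy chain gene, and Myog were tested and both rose, while Myod1 and Ckm had too few reads for the test. The 6 epithelial markers summed to 4.18 to 4.93 CPM in EMSC against 10.1 to 13.2 CPM in NPS-EMSC, with Krt8 and Krt18 called higher and Krt5 and Krt14 at 0 in NPS-EMSC. The 6 leukocyte markers went from between 54.5 and 68.0 CPM to between 7.44 and 9.30 CPM, all 5 tested members being lower, and Cd3e had no row. Glial markers went from between 28.7 and 30.6 to between 5.75 and 7.003 CPM, with both tested members lower, S100b among them, and olfactory neuron markers from between 103 and 119 to between 45.7 and 51.1 CPM, with Ncam1 and Stmn2 lower. Endothelial markers summed to 1.99 to 2.70 and 1.72 to 2.45 CPM, Pecam1 and Tek did not pass, and Cdh5 was at 0 in NPS-EMSC.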

How the data were processed

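Total RNA of 6 libraries was sequenced by the submitters after TRIzol isolation and a VAHTS Universal V6 kit, per the labels' protocols. Tools listed in the submitters' processing notes, with no role, are HISAT2, StringTie, HTSeq, fastp, R 3.2.0 and DESeq. For build, annotation and strand use, the sources used here give nothing. The authors deposited raw read counts per gene and a table of FPKM for the same 20653 genes, and for each gene counts and FPKM implied the same length in every library (tolerance 0.1 percent), so the FPKM are the counts rescaled.

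Members were found by symbol. Of the 20653 symbols 18153 are current RefSeq symbols of GRCr8, and none of the 17 missing members had a row under a synonym that is not itself a Hox symbol. Some synonyms are: Hoxa11 is one of Hoxa2, and Hoxa10 one of Hoxa11, so the Hoxa11 row could hold a member counted here as missing. The members and lists were chosen with earlier results of these data known. The whole table was tested with edgeR 4.0.16 in R 4.3.3 (glmQLFit, robust, TMM, filterByExpr with a minimum count of 10 and total of 15), which left 14505 genes. SE was computed from the log2 fold change and the F statistic (size over root of F). The rule for naming took every Hox gene with at least 3 reads (others also given), every neighbour (3 on each side of a cluster), and up to 4 called members of each list with a mean of at least 5 CPM; other list genes were named after their values were seen. Groups were compared with exact permutation tests for single genes. Alternatives were RLE and upper-quartile factors, DESeq2 1.42.0, other filters, limma 3.58.1 on log2(FPKM + 1) and log2(FPKM + 0.1), a block for the replicate number, a stricter threshold of 0.01, and fits with 1 library left out in turn. On simulated data for this comparison (14294 genes tested, changes placed in genes averaging 1 CPM or more) edgeR recovered 84% of 1.5-fold, 96% of 2-fold and 100% of 4-fold changes, 50 genes each, and called 5 of 14094 unchanged genes. Genes as sparse as most Hox genes were not simulated. Some genes that the naming rule covers are not reported here.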

Additional observations from a re-analysis of the deposited data

How the results depend on the processing

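Hoxd8 was called higher under all 16 alternatives, with log2 values from 0.78 (limma on log2(FPKM + 1)) to 6.57 (DESeq2) and adjusted p from 2.42e-16 to 0.000136. The number of Hox genes called higher depended on the filter on low counts, because more members were then tested: it was 1 with the default filter, 6 without a filter and 4 with limma on log2(FPKM + 1) without a filter. Leaving out 1 library gave 1 to 3, the 3 being Hoxd8, Hoxd9 and Hoxd13, since the filter then asks for fewer libraries. These genes passed the filter through their NPS-EMSC reads alone, so a lower call could not arise. The count was 3 without any 1 of the EMSC libraries and without NPS-EMSC replicate 2. In those fits 4108 to 4215 of the 14847 to 14903 genes tested were called higher. Over all 20653 rows, 4539 were called higher by edgeR without a filter and 3596 by limma without a filter. The summed Hox level was 0.0332 and 3.38 CPM with unscaled totals. Without 1 library it was 0.0124 to 0.0488 CPM in EMSC against 3.06 to 4.01 CPM in NPS-EMSC, the 0.0124 being without EMSC replicate 1, which held 3 of the 4 EMSC reads. Over all genes, 3492 to 4539 genes were called higher and 3495 to 4662 lower. Of 640 alternative values of named genes 613 kept their direction and call. A call was gained in 11 (Hnrnpa3, Calcoco1 and Nfe2l2) and lost in 13 (Atp5mc1, Kdm6a, Snx11 and Lnpk). In 3 the direction turned for genes that did not pass in either fit: without 1 library, Tax1bp1 ranged from -0.0699 to 0.0043 (highest without EMSC replicate 3), Atp5mc2 from -0.0884 to 0.0093 (without NPS-EMSC replicate 1) and Smug1 from -0.0517 to 0.0137 (without NPS-EMSC replicate 3). The cause was not tested. Libraries share replicate numbers, but same-numbered libraries did not deviate together (r = -0.04, 0.05 and 0.04) and not every library correlated best with its own number. With the replicate block 1 Hox gene was called, and 4331 genes were higher and 4257 lower. At this depth 0 reads over a group allow a level of up to 0.0251 CPM in EMSC or 0.0255 CPM in NPS-EMSC, and genes with a few reads rest on counts too small to compare.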
